A study of Mus musculus with 36 samples.

Results

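The perineuronal net matrix genes examined here were the lecticans Acan, Bcan, Ncan and Vcan, the link protein genes Hapln1, Hapln3 and Hapln4, Tnr for tenascin-R, the hyaluronan synthase gene Has2, and Pvalb, the calcium-binding protein that marks the interneurons most often wrapped by these nets. They were chosen by symbol, and all 10 were found among the 55359 genes of the deposited count tables. RNA was sequenced from 36 individual C57BL/6J mice, with 12 at each of 3 ages: dorsal telencephalon of embryos (days E12.5 and E17.5) and cerebral cortex at postnatal day 25 (P25), in each case without its medial part. At each age 6 mice were wild type and 6 were Chd8+/-, heterozygous for loss of a chromatin remodeller of the CHD family, each genotype with 3 animals of either sex. The labels state that the mice came as litter- and sex-matched pairs but not which libraries form a pair, and they do not describe the Chd8 allele. The study set out to compare the genotypes across cortical development. The dissection changed with age, and RNA of the E12.5 tissue was extracted with another kit than that of the older tissue. In differences from E12.5, age and kit cannot be told apart; E17.5 and P25 share a kit but not the dissection, so that age and tissue cannot be told apart there.

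A perineuronal net is a mesh that forms around the cell body and proximal dendrites of some neurons, most of all fast-spiking parvalbumin interneurons, as the cortex matures. Hyaluronan chains, made at the cell surface by hyaluronan synthases, form its backbone; lecticans are chondroitin sulfate proteoglycans that bind hyaluronan through one end, link proteins clamp that bond, and tenascin-R joins the other ends of the lecticans together. The juvenile matrix is known for versican and neurocan and for tenascin-C, the mature one for aggrecan and brevican. In bulk tissue, fewer cells of a type and less RNA per cell cannot be told apart.

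Several of these genes lie side by side. In the GENCODE M21 annotation (mouse build GRCm38), Acan and Hapln3 are neighbours on chromosome 7, Bcan and Hapln2 on chromosome 3, Ncan and Hapln4 on chromosome 8, and Vcan and Hapln1 on chromosome 13. Tnr lies on chromosome 1, and Has2 and Pvalb on chromosome 15. Gene models of the opposite strand overlap Has2, Vcan, Hapln1 and Tnr, so their reads and those of the partner cannot be told apart where counting ignored strand. For the lecticans with the largest changes between ages and for Tnr, the member with the largest genotype difference relative to its error, the 250 bases before the RefSeq transcription start are shown (GRCm38.p6, 5′ to 3′ on the gene's strand); capitals mark the E-box pattern CANNTG, whose letters read the same on both strands. In that build the Acan window is chr7:79052976-79053225 on the plus strand, the Bcan window chr3:88000357-88000606 on the minus strand, the Vcan window chr13:89742513-89742762 on the minus strand, and the Tnr window chr1:159523519-159523768 on the plus strand.
Acan: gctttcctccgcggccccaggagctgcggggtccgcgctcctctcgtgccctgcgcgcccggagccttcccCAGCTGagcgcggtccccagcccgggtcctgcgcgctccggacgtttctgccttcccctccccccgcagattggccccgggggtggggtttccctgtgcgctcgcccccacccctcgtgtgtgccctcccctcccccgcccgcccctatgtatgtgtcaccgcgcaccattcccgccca
Bcan: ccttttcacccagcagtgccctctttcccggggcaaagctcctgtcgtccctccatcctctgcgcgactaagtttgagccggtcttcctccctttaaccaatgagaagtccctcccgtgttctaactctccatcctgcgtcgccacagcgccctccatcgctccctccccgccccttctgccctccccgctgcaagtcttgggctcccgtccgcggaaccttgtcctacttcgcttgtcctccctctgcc
Vcan: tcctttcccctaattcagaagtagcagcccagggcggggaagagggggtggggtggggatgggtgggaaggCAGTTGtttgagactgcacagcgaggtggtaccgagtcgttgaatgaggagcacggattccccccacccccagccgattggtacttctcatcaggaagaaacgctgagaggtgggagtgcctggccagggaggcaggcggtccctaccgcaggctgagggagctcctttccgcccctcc
Tnr: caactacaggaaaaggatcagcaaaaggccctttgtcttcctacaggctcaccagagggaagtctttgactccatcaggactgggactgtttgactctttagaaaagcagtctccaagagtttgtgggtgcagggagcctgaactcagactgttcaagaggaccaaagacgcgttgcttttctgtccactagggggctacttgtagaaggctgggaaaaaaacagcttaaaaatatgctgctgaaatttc

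The Acan and Vcan windows each held 1 match to CANNTG and the Bcan and Tnr windows 0, where 66.2% of the 32841 RefSeq windows of this length held at least 1. CpG dinucleotides numbered 26 upstream of Acan, 16 upstream of Bcan, 10 upstream of Vcan and 2 upstream of Tnr, against a median of 6 and quartiles of 2 and 16 over all windows. Among the genes shown, those that rose between E17.5 and P25 (Acan, Bcan and Tnr) thus ran from CpG-rich to CpG-poor upstream sequence. Windows of the other members that rose are not described here. The bases directly after the RefSeq start were found in a GENCODE M21 transcript for Tnr but not for Acan, Bcan or Vcan. These are descriptions of the sequence and say nothing of which factors bind there.

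The E12.5 libraries held 35330956 to 49561343 counts each. Those of E17.5 held 23774502 to 36542286 counts and those of P25 held 25325593 to 108257517. The deepest, at P25, was wild type female 1. Chd8, the targeted gene, was at 309 to 330 CPM (counts scaled to a common library size) in wild type and 213 to 234 in Chd8+/- libraries of E12.5. The E17.5 values were 333 to 345 against 225 to 253, and those of P25 153 to 189 against 112 to 119. The genotypes did not overlap at any age. The Xist level matched the labelled sex in all 36 libraries. CPM values use library sizes scaled by the trimmed mean of M values (TMM) and are summarised as the lowest, the median and the highest of 6 libraries, or as mean ± SD. Where levels of different genes are compared, CPM was divided by the length of the gene's exons in kilobases.

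Tissue markers matched the labels in outline. The summed level of 12 excitatory cortical neuron markers was 1188 to 1469 CPM in E12.5 wild type libraries, 3683 to 4050 at E17.5 and 2076 to 2583 at P25. That of 10 radial glia and progenitor markers was 4876 to 5361, 1291 to 1574 and 115 to 140 CPM. Cells from outside the cortical wall were present to a varying degree at E12.5: 5 markers of fibroblasts and meninges, the membranes around the brain, summed to 477 to 1511 CPM there, against 11 to 25.8 at E17.5 and 80.4 to 142 at P25, and 5 choroid plexus markers summed to 0.517 to 84.2 CPM at E12.5 and 21 to 281 at P25.

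Between E17.5 and P25 Vcan and Tnc fell from high levels in wild type cortex, and Has3 from a lower one (2.79 CPM per kilobase). Bcan, Hapln1, Hapln4 and Tnr rose, and Acan reached a low but clearly raised level. Ncan was high at both ages, at 75.3 and 55.7 CPM per kilobase. Of the 10 members, all of which passed the low-count filter of this fit, 6 were higher and 2 lower at P25 (edgeR quasi-likelihood test, 6 against 6 libraries, adjusted p under the 0.05 threshold), where 42% of all 20270 tested genes were higher and 42.5% lower. All 6 rises were at least 2-fold, as were 26.9% of all tested genes, and 1 fall was, as were 21.1%. Pvalb and Hapln4 passed the filter only through their P25 libraries, so their place among the risers follows from having been tested.

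**Figure D1:**
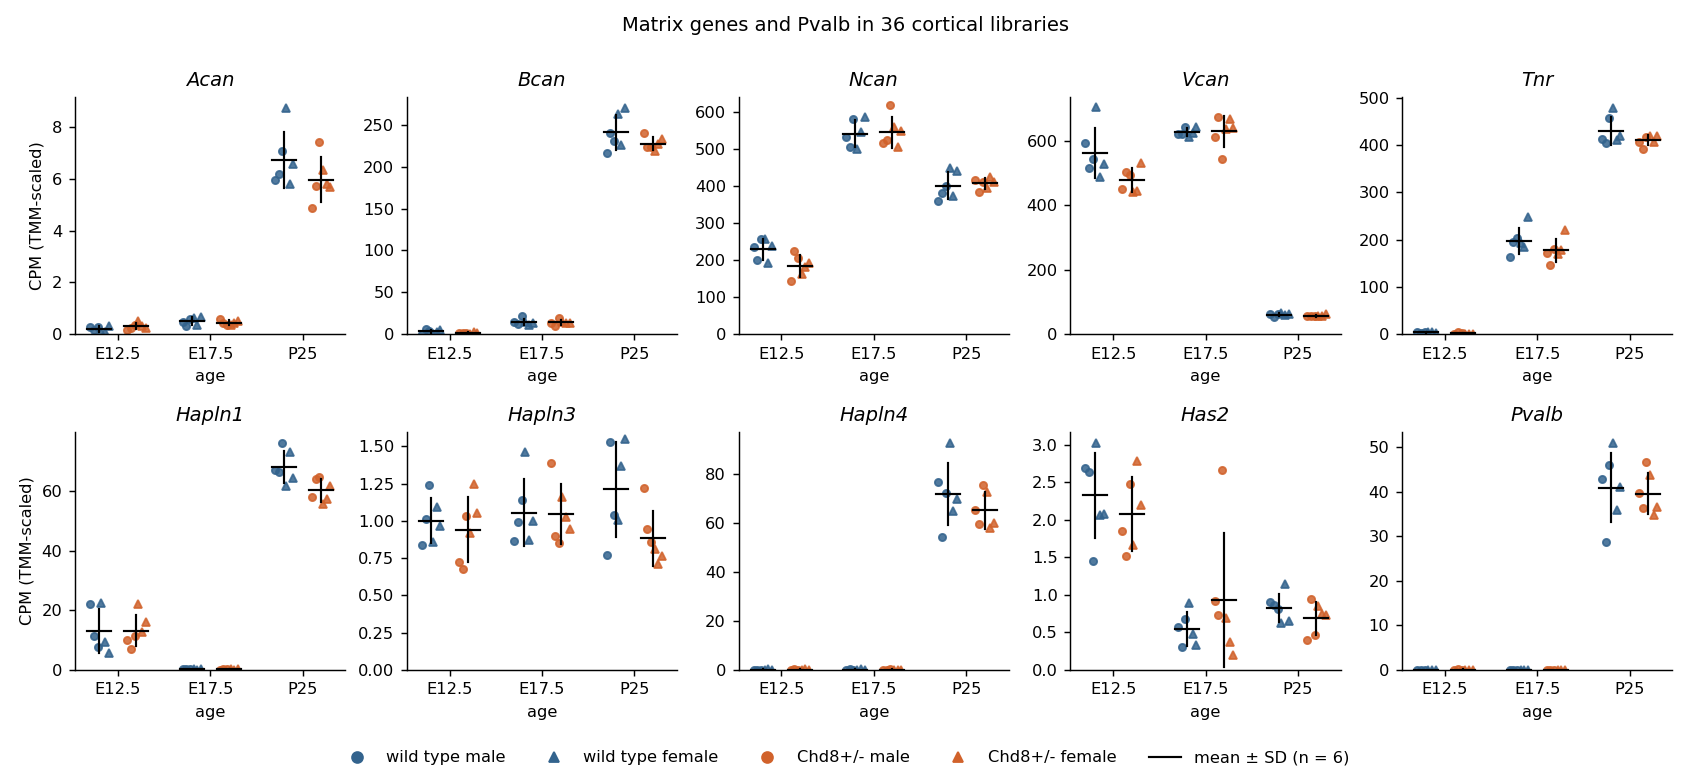
Level of each gene in all 36 libraries, in CPM on a linear axis from 0, by age; each point is a library (blue wild type, orange Chd8+/-, circles male, triangles female) and bars give mean ± SD of 6. Vcan falls from 610–644 CPM in wild type at E17.5 to 52.5–64.9 at P25, while Pvalb and Hapln4 appear only at P25 and Hapln3 stays near 1 CPM.

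Among the lecticans, Bcan, whose product brevican is an abundant lectican of the adult brain, was at 0.895, 3.79 and 6.10 CPM (lowest, median, highest) in wild type at E12.5. The E17.5 libraries held 11.8, 14 and 21.5 CPM and those of P25 held 216, 235 and 270 CPM, so that no library of one age overlapped another age. The rise between E17.5 and P25 was 16.5-fold (log2 fold change 4.05 ± 0.286 SE, adjusted p = 1.95e-10), after a log2 rise of 2.13 ± 0.314 between E12.5 and E17.5 (adjusted p = 6.46e-06). Acan, which codes for aggrecan, the lectican that defines most net-bearing neurons, was at 0.0796, 0.229 and 0.305 CPM at E12.5, resting on 4 to 14 counts a library. Libraries of E17.5 held 0.330, 0.546 and 0.667 CPM of Acan, and P25 libraries 5.78, 6.38 and 8.73 CPM. Acan rose 13.1-fold between E17.5 and P25 (log2 3.71 ± 0.212, adjusted p = 8.01e-12), again with no overlap between the ages.

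Ncan and Vcan, the lecticans of the juvenile matrix, followed 2 different courses. Ncan went from 192, 237 and 258 CPM in E12.5 libraries to 499, 539 and 588 in E17.5 libraries and 359, 392 and 449 in those of P25. Its rise before birth (log2 1.24 ± 0.0744, adjusted p = 2.72e-11) was followed by a fall of 0.42 ± 0.0734 on the log2 scale (adjusted p = 3.36e-05), and P25 levels remained above all E12.5 levels. Vcan, by contrast, was the highest lectican at E12.5, at 489, 536 and 704 CPM. E17.5 libraries held 610, 622 and 644 CPM and P25 libraries 52.5, 63.0 and 64.9 CPM, a 10.2-fold fall (log2 -3.34 ± 0.0762, adjusted p = 1.60e-17). The E12.5 and E17.5 ranges of Vcan overlapped; the fitted difference was 0.16 ± 0.0688 on the log2 scale (adjusted p = 0.043), and this call was lost in 15 of the 18 fits that left out 1 library and with DESeq2 (adjusted p = 0.0922), other scalings (0.0926 with RLE, 0.886 with library totals only) and other filters (0.0821 when stricter, 0.0970 with none).

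Per kilobase of exon, the lecticans made up a similar total at E17.5 and P25 from different genes. Their summed level in wild type was 71.8 ± 8.19 CPM per kilobase at E12.5 (SD, n = 6), 122 ± 6.47 at E17.5 and 120 ± 10.3 at P25. The Vcan share of that sum was 54.1% ± 2.66, then 35.5% ± 1.17, and 3.54% ± 0.354 in the oldest group. Bcan took 1.24% ± 0.818, 2.95% ± 0.595 and 49.3% ± 0.917 at the same ages. Ncan held 44.6% ± 2.31, 61.5% ± 1.09 and 46.4% ± 0.706, so that at P25 Bcan and Ncan together made up nearly all lectican RNA. Their ranges per kilobase overlapped between libraries, but within each wild type P25 library Bcan was slightly the higher (lowest log2 ratio to Ncan 0.0204). Acan reached 0.747% ± 0.0818 at P25, from 0.0561% ± 0.0149 at E17.5. Within a library, the log2 ratio of Acan to Vcan per kilobase moved from -9.35 ± 0.424 at E17.5 to -2.25 ± 0.198 at P25, and that of Bcan to Ncan from -4.41 ± 0.276 to 0.09 ± 0.0478. With the length of the longest transcript in place of all exons, the P25 shares were 55.4% for Bcan and 40.3% for Ncan.

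**Figure D2:**
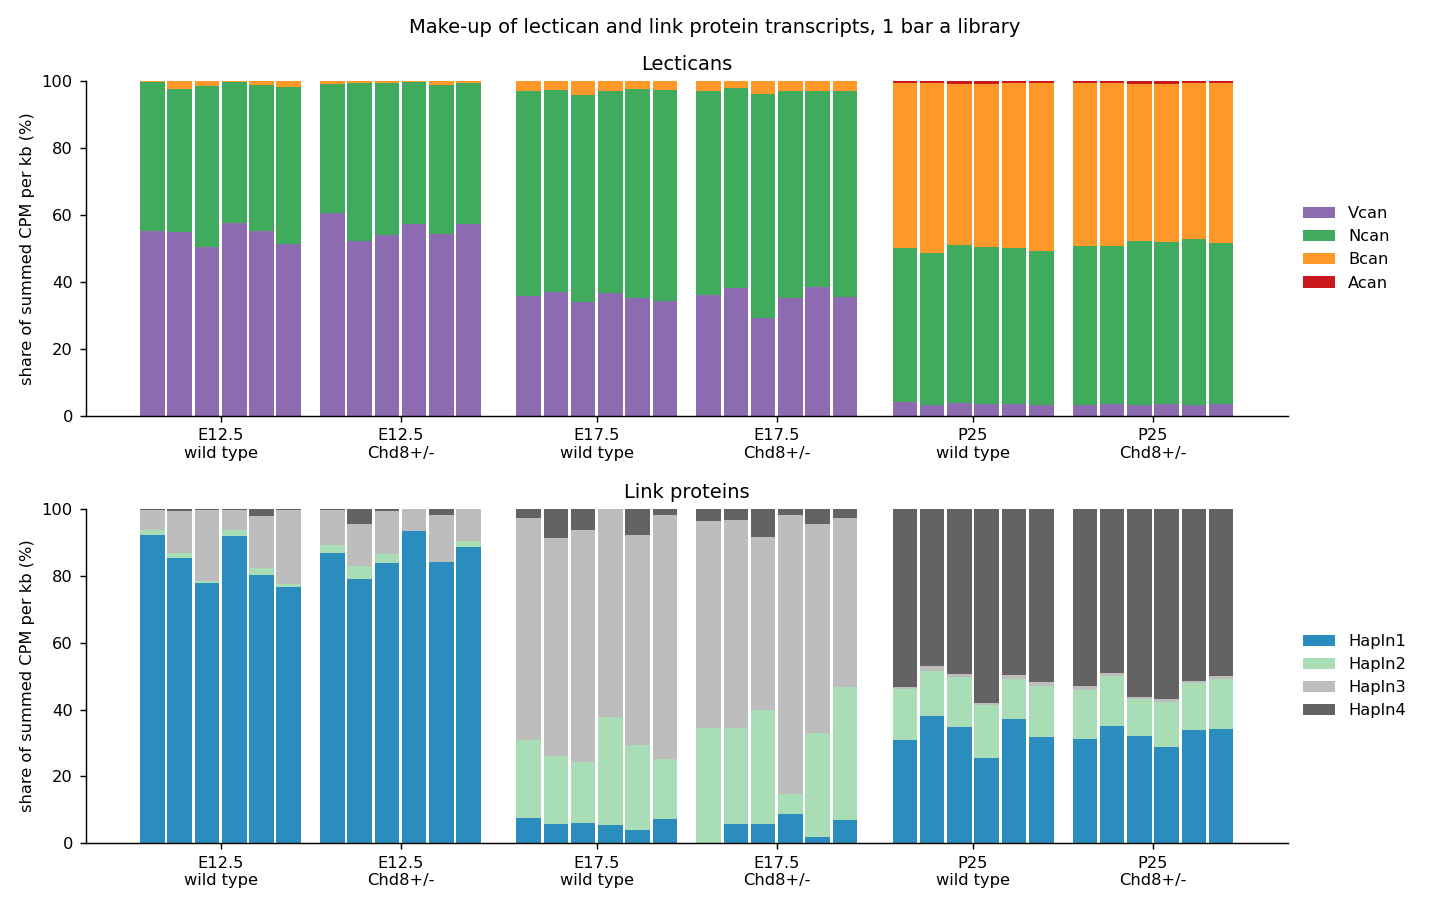
Make-up of lectican transcripts (top) and link protein transcripts (bottom), as the share of their summed CPM per kilobase of exon in percent, 1 bar for each of the 36 libraries, grouped by age and genotype. The Vcan band shrinks from a mean of 54.1% in wild type at E12.5 to 3.54% at P25 as the Bcan band widens to 49.3%; the E17.5 link protein bars rest on a summed level of 0.371 to 0.668 CPM per kilobase in wild type.

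Of the link protein genes, Hapln1 and Hapln4 were near 0 at E17.5 and high at P25, while Hapln3 stayed near 1 CPM. For Hapln1, which codes for the link protein most studied in net formation, wild type levels were 5.62, 10.4 and 22.3 CPM in E12.5 tissue, 0.0904, 0.166 and 0.222 CPM in E17.5 tissue (3 to 7 counts a library) and 61.5, 66.7 and 76.0 CPM in P25 cortex. It thus fell by 6.32 ± 0.483 on the log2 scale before birth (adjusted p = 8.58e-10) and rose 420-fold afterwards (log2 8.71 ± 0.446, adjusted p = 1.52e-12). Hapln4, the brain-specific link protein also called Bral2, held 0.0210 to 0.166 CPM in E12.5 libraries and at most 0.150 CPM in those of E17.5. P25 libraries held 54.3, 70.9 and 92.5 CPM, a fitted difference of 9.88 ± 0.211 on the log2 scale from E17.5 that starts from 15 counts over 6 libraries. Hapln3, a more widely expressed link protein, stayed level: from youngest to oldest its levels were 0.836 to 1.24, 0.865 to 1.46 and 0.771 to 1.55 CPM, its ranges overlapped at all ages, and its differences did not pass the threshold (adjusted p = 0.726 between E12.5 and E17.5, 0.387 between E17.5 and P25). Per kilobase, Hapln4 made up 51.5% ± 3.84 and Hapln1 33.1% ± 4.62 of the link protein RNA at P25. Hapln2, the link protein of the nodes of Ranvier in myelinated tracts, made up 14.4% ± 1.42, at 12.1 ± 2.28 CPM against 0.255 ± 0.126 at E17.5; it too was tested between these ages only through its P25 libraries.

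The spread of Hapln1 at E12.5 partly followed that of meningeal markers. In wild type, male 1 and female 1 had Hapln1 at 22.1 and 22.3 CPM and summed fibroblast and meninges markers of 1268 and 1511 CPM, and female 3 had the lowest of both, 5.62 and 477 CPM. Male 2 combined 1226 CPM of these markers with 11.4 CPM of Hapln1. In Chd8+/- libraries male 2 was lowest in both, at 7.07 CPM of Hapln1 and 395 CPM of markers, but the highest Hapln1 (female 1, 22 CPM) came with 831 CPM of markers and the highest marker sum (female 3, 1543 CPM) with 16.1 CPM of Hapln1. Both the markers and Hapln1 were near their lowest at E17.5. Has2 and Tnc at E12.5 were also highest in wild type female 1, at 3.02 and 37.1 CPM. The part of such cells in these levels was not tested.

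Tenascin-R, made by oligodendrocytes and some neurons, crosslinks lecticans in the mature matrix, and tenascin-C is its embryonic relative. Wild type Tnr levels were 3.10, 4.37 and 5.83 CPM in E12.5 libraries, 164, 195 and 247 in E17.5 libraries and 405, 415 and 478 in P25 libraries. In CPM with TMM scaling the larger step came after E17.5. On the log2 scale most of the rise came before, at 44.8-fold (log2 5.48 ± 0.130, adjusted p = 1.56e-16). Between E17.5 and P25 Tnr rose a further 2.19-fold (log2 1.13 ± 0.103, adjusted p = 7.92e-09, and log2 0.92 with library totals only). Tnc rose with it and then fell: E12.5 libraries held 4.32, 11.1 and 37.1 CPM, E17.5 libraries 286, 309 and 354 CPM, and P25 libraries 5.01, 6.78 and 13.3 CPM, a 41.3-fold fall (log2 -5.37 ± 0.449, adjusted p = 2.37e-09). The 2 tenascins thus changed places: per kilobase Tnc was the higher at E17.5, at 36.8 to 45.5 CPM against 12.8 to 19.2 for Tnr, and Tnr at P25, at 33.4 ± 2.32 against 0.982 ± 0.383. At E12.5 Tnc was at 0.556 to 4.77 and Tnr at 0.241 to 0.453 CPM per kilobase, again without overlap.

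Among the hyaluronan synthases, Has2 was highest at E12.5, at 1.45, 2.36 and 3.02 CPM, and lower at E17.5, at 0.300, 0.529 and 0.890 CPM (log2 -2.10 ± 0.256, adjusted p = 5.75e-07). Its P25 levels of 0.624, 0.832 and 1.14 CPM overlapped those of E17.5 (log2 0.60 ± 0.283, adjusted p = 0.0561). This difference passed the threshold with DESeq2 (adjusted p = 0.0257), with RLE scaling (0.0366), with a stricter or no filter (0.0445 and 0.0366) and without sex in the model (0.0416), and when E12.5 wild type male 3, E17.5 wild type male 3, E17.5 wild type female 1 or P25 wild type female 1 was left out (0.0443, 0.0308, 0.0118 and 0.0283). These were the only passes: 9 of 27 alternative fits, over which the log2 value ran from -0.13 to 0.83. In Chd8+/- libraries the Has2 mean was 0.932 CPM at E17.5 and 0.687 at P25, with overlapping ranges. Has3 was the most abundant synthase at E17.5, at 14.1 to 23 CPM, against 3.09 to 5.59 at E12.5 and 2.42 to 3.76 at P25 (log2 -2.40 ± 0.143 from E17.5 to P25, adjusted p = 1.47e-11). Has1 did not exceed 0.0713 CPM before birth in wild type and was at 0.129 to 0.471 CPM at P25.

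Pvalb had 0 counts in all 12 wild type libraries before birth. Pooled over the 6 libraries of an age, a count of 0 allows up to 3 counts, or 0.0112 CPM at E12.5 and 0.0155 CPM at E17.5, a limit that covers counting error only. At P25 Pvalb was at 28.7, 42.0 and 50.9 CPM. The P25 mean of 40.9 CPM was 3663 times the E12.5 limit and 2635 times the E17.5 limit. In Chd8+/- mice 4 of 6 libraries were at 0 at each embryonic age; E12.5 Chd8+/- male 2 held 10 counts (0.241 CPM) and no other embryonic library more than 2. Of the 12 fast-spiking markers, a list that holds Pvalb, 9 also passed the filter in the E17.5 libraries alone, and all 9 were higher at P25 (median log2 fold change 2.69). Over all 17948 genes that passed there, 38.1% were higher and the median was -0.16. The other 3 (Pvalb, Cox6a2 and Pthlh) entered this comparison through other ages. The summed level of the 12 was 154 to 181 CPM at E17.5 and 832 to 1128 CPM at P25.

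Ordered by CPM per kilobase in wild type, Vcan (38.9) and Ncan (32) led at E12.5 with overlapping ranges, followed at a distance by Hapln1 (2.22), Bcan (0.851), Has2 (0.549), Tnr (0.342) and Hapln3 (0.285), each of whose ranges overlapped that of its neighbour in the order. At E17.5 Ncan (75.3) stood above Vcan (43.3), Tnr (15.4) and Bcan (3.62) with no overlap among these 4. At P25 the ranges of Bcan (59.2) and Ncan (55.7) overlapped, with Bcan the higher within each library. Those of Pvalb (39.3) and Tnr (33.4) also overlapped. Hapln4 (18.3), Hapln1 (11.5), Vcan (4.23) and Acan (0.899) followed in separate ranges, with Hapln3 (0.345) and Has2 (0.196) last and overlapping. Aggrecan RNA was thus a small fraction of lectican RNA in whole cortex at every age.

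Over the longer span from E12.5 to P25, 7 members were higher and 2 lower, with 44.3% of all tested genes higher and 43.4% lower. At least 2-fold changes were 6 rises and 2 falls, and 30.8% and 25.7% of all genes. Between E12.5 and E17.5, 5 members were higher (Acan, Bcan, Ncan, Vcan and Tnr) and 2 lower (Hapln1 and Has2), against 38.2% and 37.1% of all genes; 4 of these rises and both falls were at least 2-fold, against 18.7% and 15.6%. In the Chd8+/- libraries the Acan rise was smaller, its ranges overlapped and it did not pass the threshold (log2 0.51 ± 0.238, adjusted p = 0.0573). With library totals in place of TMM scaling, the median of all genes shifted to -0.15 (E17.5 against E12.5), -0.24 (P25 against E17.5) and -0.35 (P25 against E12.5) on the log2 scale, so changes of that size are relative to the scaling. Changes were so widespread between these ages that the number of members called is no result about the net genes; their direction and size are what the values above describe.

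The wider matrix machinery also changed between E17.5 and P25 in wild type cortex, as did most genes: the counts that follow stand against 42% of all tested genes higher and 42.5% lower. Of 10 chondroitin sulfate chain synthesis genes, 8 rose and 2 fell (median log2 fold change 0.84, against -0.03 over all genes). The chain-initiating enzyme gene Csgalnact1 went from 7.91 ± 0.917 to 25.8 ± 1.78 CPM and the polymerising factor gene Chpf2 from 19.1 ± 1.13 to 55.4 ± 2.86 CPM, while the synthase gene Chsy1 fell from 43.1 ± 2.01 to 15.5 ± 1.02 CPM and Dsel, for a dermatan sulfate epimerase, from 39.4 ± 2.42 to 21.8 ± 2.41 CPM. Of 7 chondroitin sulfotransferase genes tested, 5 rose and 2 fell, none by 2-fold or more (median 0.74). Chst11, a 4-O-sulfotransferase, went from 33.7 ± 2.65 to 62.4 ± 5.70 CPM and Chst7, a 6-O-sulfotransferase, from 0.804 ± 0.164 to 1.55 ± 0.428; Chst15 fell from 49.5 ± 4.34 to 35.3 ± 2.72 CPM and Chst14 from 2.40 ± 0.127 to 1.31 ± 0.327.

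Genes for the turnover of the matrix moved in both directions. Of 5 hyaluronan degradation genes, Cemip, for a hyaluronan-binding protein needed for its breakdown, rose 8.31-fold to 42.5 ± 2.74 CPM and Hyal1 1.28-fold, and 3 fell, led by the hyaluronidase gene Hyal2 (4.35-fold, to 3.87 ± 0.544 CPM) and Cemip2 (3.29-fold, to 28.9 ± 1.73 CPM). Of 15 protease and inhibitor genes, 8 rose, 6 fell and Timp1 did not pass the threshold (median 0.57), shares close to those over all genes. The metalloprotease inhibitor gene Timp4 rose from 0.354 ± 0.131 to 30.3 ± 1.63 CPM and the lectican-cleaving protease gene Adamts15 from 0.966 ± 0.507 to 7.52 ± 0.470; Mmp9 fell from 7.05 ± 1.37 to 1.11 ± 0.279 CPM and Mmp14 from 40.6 ± 2.82 to 10.9 ± 1.49.

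Net-associated proteins and matrix receptors completed the picture. Of 10 other proteoglycan and net-associated genes, 8 rose and 2 fell (median 2.67); the neuronal pentraxin receptor gene Nptxr rose 20.2-fold to 879 ± 70.2 CPM and the pentraxin gene Nptx2 16.1-fold to 44.8 ± 4.19, while the receptor-type proteoglycan gene Ptprz1 fell from 1011 ± 26 to 464 ± 54.2 CPM and Sema3a, for a secreted guidance protein that binds nets, from 79.1 ± 4.43 to 49.1 ± 8.49. Of 7 receptor genes, 4 rose and 3 fell (median 1.5), again close to the shares over all genes; Lyve1, a hyaluronan receptor of macrophages and lymphatic vessels, rose from 0.0895 ± 0.0567 to 2.44 ± 0.634 CPM and Rtn4rl1, for a Nogo receptor relative, from 7.39 ± 1.48 to 52.1 ± 4.17, and the chondroitin sulfate receptor genes Ptprs and Ptprf fell 1.59-fold and 1.58-fold. Otx2 of the net-associated list and Lyve1 of the receptor list did not pass the filter in the E17.5 libraries alone. Of the net-associated genes that did, 7 of 9 rose and 2 fell (median 2.91). Of the 6 such receptor genes, 3 rose and 3 fell (median 0.60). Over all genes that passed there, 38.1% rose and 46.7% fell. Beside these changes, most glial markers rose. Among those that passed the filter in the E17.5 libraries alone, these were 7 of 8 astrocyte genes (median log2 4.13), 6 of 6 oligodendrocyte precursor genes (3.25), 4 of 4 oligodendrocyte genes (7.67) and 7 of 7 microglia genes (3.51), against 38.1% of all genes that passed there. The part of these cells in the matrix changes was not tested.

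The genotype comparison asked whether loss of 1 Chd8 copy shifts these genes. At E12.5 the clearest difference was in Tnr, which was lower in Chd8+/- dorsal telencephalon. Wild type libraries were at 3.10, 4.37 and 5.83 CPM (lowest, median, highest) and Chd8+/- libraries at 1.41, 1.58 and 4.03. Of the 6 Chd8+/- libraries, 5 lay at or below 2.02 CPM, under the whole wild type range; the exception was male 2, at 4.03 CPM. The fitted difference was -1.17 ± 0.236 on the log2 scale, 2.24-fold, and its adjusted p of 0.0516 fell just short of the threshold in the edgeR test. Without Chd8+/- male 2 it was -1.42 (adjusted p = 0.0130). DESeq2 called it (log2 -1.16, adjusted p = 0.000171), and over 21 alternative fits the value ranged from -1.42 to -1.06 with adjusted p from 5.16e-05 to 0.153. The difference passed the threshold in 7 of these 21. Of the 12 fits that left out 1 library, it passed in 1, that without Chd8+/- male 2.

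**Figure D3:**
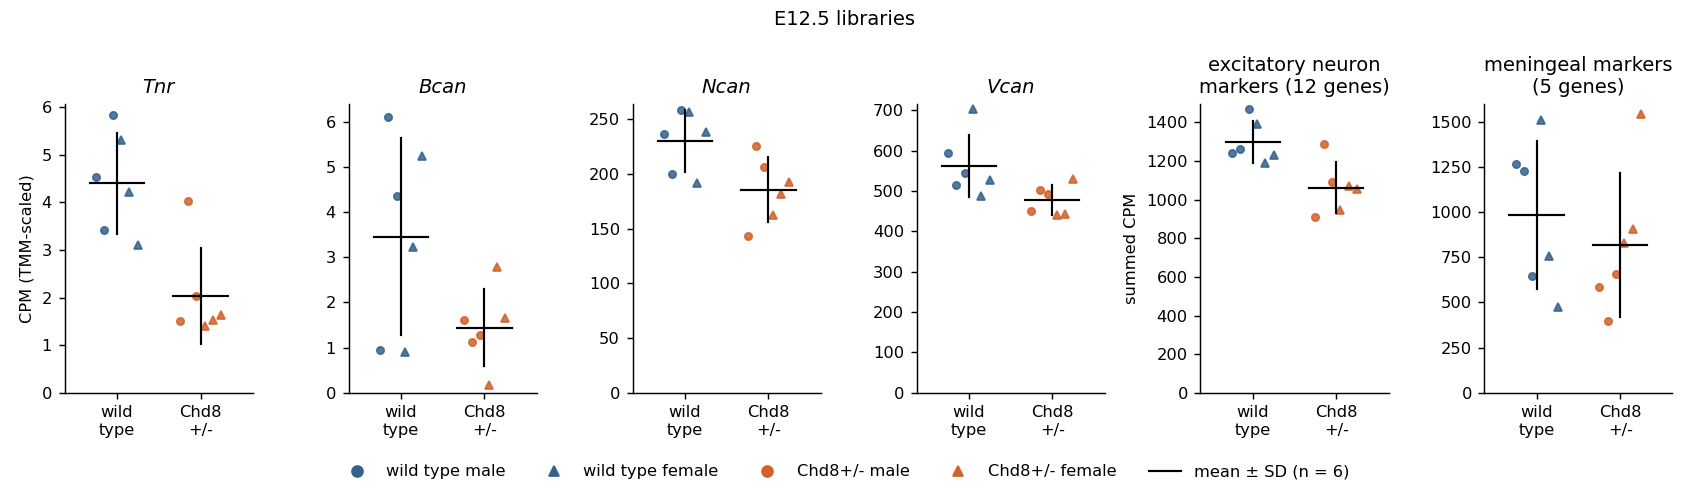
Levels of Tnr, Bcan, Ncan and Vcan in the 12 E12.5 libraries (CPM), with the summed CPM of 12 excitatory neuron markers and 5 meningeal markers, each on a linear axis from 0; points are libraries by genotype and sex, bars mean ± SD of 6. Tnr lies below the wild type minimum of 3.10 CPM in 5 of 6 Chd8+/- libraries, and the excitatory marker sum runs from 912 to 1288 CPM in Chd8+/- against 1188 to 1469 in wild type libraries.

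The lecticans Bcan, Ncan and Vcan also had negative estimates at E12.5, which did not pass the threshold in the edgeR test of these 12 libraries. With all 36 libraries in 1 edgeR fit the 3 passed, with adjusted p of 0.0373 for Bcan, 0.0148 for Ncan and 0.0218 for Vcan. That fit shares its estimate of spread over the ages and called 1233 genes at E12.5, against 44 in the fit of the 12 libraries. The 3 calls thus came with many more calls among all genes. Bcan was at 0.895 to 6.10 CPM in wild type and 0.171 to 2.78 CPM in Chd8+/- libraries, with much overlap (log2 -1.26 ± 0.565, adjusted p = 0.264). Ncan was at 192 to 258 against 144 to 226 CPM (log2 -0.31 ± 0.104, adjusted p = 0.141) and Vcan at 489 to 704 against 441 to 530 CPM (log2 -0.24 ± 0.0767, adjusted p = 0.132); in each, 3 Chd8+/- libraries lay below the wild type range. Acan went the other way on few counts, at 0.0796 to 0.305 against 0.185 to 0.534 CPM (log2 0.64 ± 0.377, adjusted p = 0.396). Hapln1 (-0.04 ± 0.347), Hapln3 (-0.10 ± 0.174) and Has2 (-0.16 ± 0.190) differed by less than their errors. Hapln4 and Pvalb did not pass the low-count filter.

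Of the 8 members tested at E12.5, edgeR called 0, and 0.231% of 19041 genes. That share is 44 genes; with 1 library left out the number ran from 1 (when any 1 of 6 libraries was the one left out) to 670 (without Chd8+/- male 2). At an unadjusted p under 0.05 it counted 4 (Tnr, Bcan, Ncan and Vcan, all lower), where 17.9% of all genes reached that level. DESeq2 called 3 (Tnr, Ncan and Vcan) and 6.02% of all genes. In 7 of the 8 the estimate was negative, with a median of -0.20 against 0.00 over all genes. Estimates of neuronal markers had the same sign in these libraries: 11 of 12 excitatory cortical neuron genes had negative estimates (median log2 -0.26, 0 past the threshold and 8 at an unadjusted p under 0.05), and their summed level was 1188 to 1469 CPM in wild type against 912 to 1288 in Chd8+/- libraries. Of 13 general interneuron genes, 12 had negative estimates (median -1.60, 0 past the threshold and 5 at an unadjusted p under 0.05). Their summed level was 112 to 358 CPM in wild type (median 146) and 95.8 to 141 in Chd8+/- libraries (median 123). The top of the wild type range came from female 1 (358 CPM) and male 1 (231 CPM), and the next library, female 3, was at 158 CPM. Of 6 genes tested from a list of other interneuron classes, 5 had negative estimates (median -0.24), and 1 was called, the somatostatin gene Sst (log2 -3.10 ± 0.415, adjusted p = 0.0279), which is named for that call. Radial glia markers summed to 4876 to 5361 against 5092 to 5456 CPM, and 7 of 10 had positive estimates (median 0.06). Negative estimates were not particular to neuronal lists. They numbered 6 of 7 in microglia (median -0.32), 5 of 5 in fibroblasts and meninges (-0.15), 5 of 7 in astrocytes (-0.20) and 4 of 4 in choroid plexus (-0.25). Of endothelial genes 5 of 5 were positive (0.07), and of blood genes 5 of 6 (0.18). Chd8+/- male 2, the library with high Tnr, also had the highest excitatory marker sum of its group, 1288 CPM. The part of these cell types in the Tnr difference was not tested.

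At E17.5 and P25 the genotypes were close. Tnr at E17.5 was at 164, 195 and 247 CPM in wild type and 146, 175 and 220 in Chd8+/- libraries (log2 -0.16 ± 0.0816, adjusted p = 0.628), and at P25 at 405 to 478 against 392 to 419 CPM (log2 -0.04 ± 0.0358, adjusted p = 0.957). With no low-count filter the E17.5 difference passed the threshold (log2 -0.16, adjusted p = 0.0179). Of 7 members tested at E17.5, edgeR called 0 (0.116% of 18064 genes), with 0 at an unadjusted p under 0.05 (8.27% of all genes) and 0 called by DESeq2 (0.587%). Has2 had the widest spread there, at 0.195 to 2.67 CPM in Chd8+/- against 0.300 to 0.890 in wild type libraries (log2 0.63 ± 0.442, adjusted p = 0.750). Without Chd8+/- male 3, the library at 2.67 CPM, the estimate was 0.11, and without wild type female 1 it was 0.95 (adjusted p = 0.934 and 0.642). Estimates for Bcan (-0.03 ± 0.140), Ncan (0.01 ± 0.0525) and Hapln3 (-0.02 ± 0.178) were within their errors, and that of Vcan was 0.00 ± 0.0444.

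At P25, when nets form, all 10 members were tested and 0 were called by edgeR (0.00542% of 18467 genes) or by DESeq2 (0.0921%). Hapln1 alone reached an unadjusted p under 0.05, as did 5.76% of all genes: it was at 61.5, 66.7 and 76.0 CPM in wild type and 55.5, 59.7 and 64.8 in Chd8+/- libraries, with 3 of these below the wild type range (log2 -0.15 ± 0.0624, adjusted p = 0.810). Acan was at 5.78 to 8.73 against 4.86 to 7.42 CPM (log2 -0.15 ± 0.107, adjusted p = 0.933), Hapln4 at 54.3 to 92.5 against 57.8 to 75.7 (-0.11 ± 0.0889, adjusted p = 0.960) and Pvalb at 28.7 to 50.9 against 34.7 to 46.6 (-0.02 ± 0.10, adjusted p = 1.0). Bcan (-0.06 ± 0.0518), Ncan (0.05 ± 0.0467), Vcan (-0.07 ± 0.0509), Has2 (-0.22 ± 0.250) and Hapln3 (-0.41 ± 0.214) were also below the threshold for a call. In 9 of the 10 the estimate was negative, with a median of -0.09, against 0.00 over all genes. In the lectican make-up, Bcan took 48.1% to 50.7% of lectican RNA in wild type and 46.7% to 48.6% in Chd8+/- libraries, 4 of which lay below the wild type range. Ncan took 45.5% to 47.4% against 47.2% to 49.4%, with 5 Chd8+/- libraries above the wild type range. The log2 ratio of Bcan to Ncan per kilobase was 0.09 ± 0.0478 in wild type and -0.02 ± 0.0502 in Chd8+/- libraries, a difference of -0.11 in a test added after these values were seen (exact permutation test, two-sided, p = 0.00866, adjusted over 10 comparisons of ratios 0.0866). It did not pass the threshold after adjustment, except without wild type male 3 (-0.12, adjusted exact p = 0.0433).

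**Figure D4:**
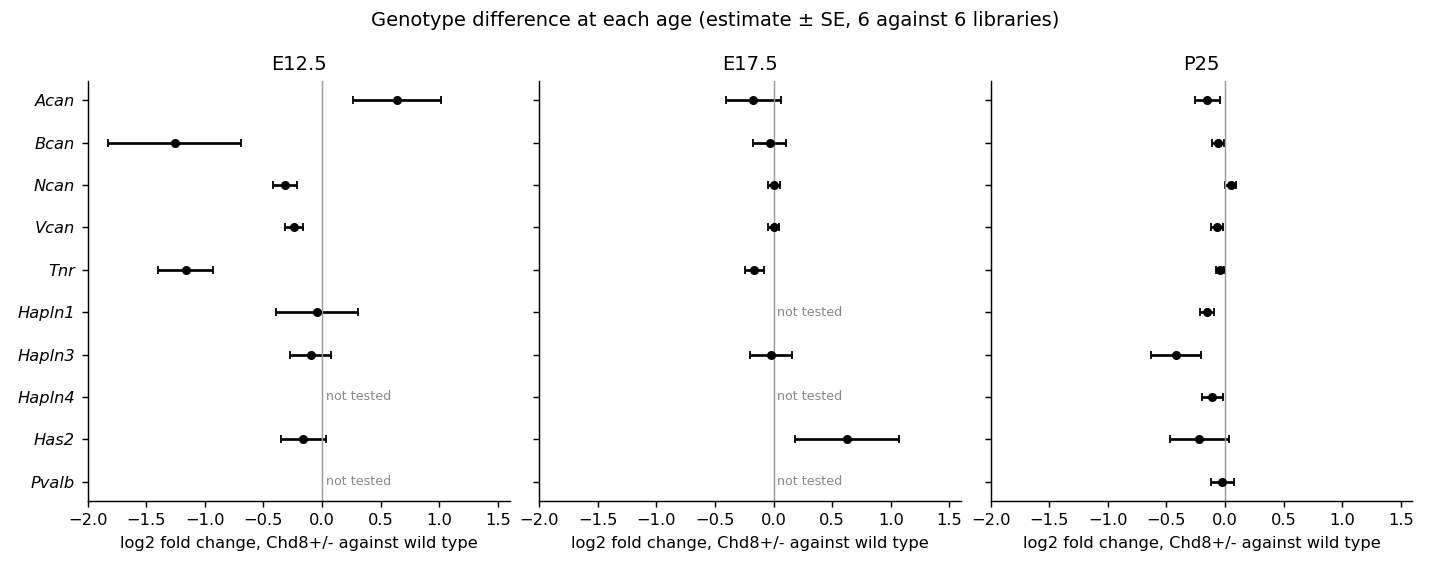
Log2 fold change of Chd8+/- against wild type for each member at each age, with its standard error (6 against 6 libraries; zero is marked by a line, and members that did not pass the low-count filter are named as not tested). Tnr (-1.17) and Bcan (-1.26) stand farthest below 0 at E12.5, while all P25 estimates lie between -0.41 and 0.05.

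Tnr was the member whose genotype difference was called by edgeR as changing with age. In 1 fit of all 36 libraries, its difference between genotypes was higher at E17.5 than at E12.5 by 1.0 ± 0.203 on the log2 scale (adjusted p = 0.0157), and higher at P25 than at E12.5 by 1.11 ± 0.203 (adjusted p = 0.00339); between E17.5 and P25 it changed by 0.11 ± 0.159 (adjusted p = 1.0). Seen within each genotype, Tnr rose by 5.48 ± 0.130 on the log2 scale from E12.5 to E17.5 in wild type and by 6.50 ± 0.155 in Chd8+/- libraries, reaching overlapping levels. The E17.5 against E12.5 call was lost on leaving out E12.5 wild type male 3 (adjusted p = 0.0584), wild type female 1 (0.0522), Chd8+/- male 1 (0.0654) or Chd8+/- female 1 (0.0524), and the value stayed between 0.89 and 1.27 over 41 alternative fits. The P25 against E12.5 call held in all 41. A fit of all ages shares a single estimate of spread per gene. With all 36 libraries in 1 edgeR fit, the SE of the E12.5 difference in Tnr was 0.168, smaller than in the fit of the E12.5 libraries alone. Where the spread between animals differs by age, such a fit can make adjusted p too small for the most variable age.

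The other 9 members were not called in these comparisons by edgeR, which called 0.361% of 21584 genes for E17.5 against E12.5, 0.769% for P25 against E12.5 and 0.00463% for P25 against E17.5. The estimates of Bcan (1.18 ± 0.439, adjusted p = 0.301) and Ncan (0.32 ± 0.113, adjusted p = 0.269) in the first of these comparisons had the sign of Tnr. DESeq2 also called Pvalb for P25 against E12.5 (log2 -3.16, adjusted p = 0.0387), on the 12 counts of Chd8+/- libraries and 0 of wild type libraries at E12.5, of which 10 came from 1 library. Leaving out Chd8+/- male 2 at E12.5 added Ncan to the called members in both comparisons with E12.5.

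The genotype difference was not found to depend on sex. Of the members tested, 0 passed the threshold for a genotype by sex term at any of the ages (edgeR), and the shares of all genes called were 0%, 0% and 0%. At an unadjusted p under 0.05 the counts were 0, 1 and 0 members, where 3.78%, 2.06% and 1.32% of all genes reached that level; the member was Has2 at E17.5. DESeq2 called 0 members at each age.

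Animals with more Pvalb RNA at P25 also had more Hapln4. Over the 12 P25 libraries, Pvalb ranged from 28.7 CPM in wild type male 2 to 50.9 in wild type female 1, and Hapln4 from 54.3 to 92.5 CPM in the same 2 animals. Pearson's r of log2 CPM was 0.935 and Spearman's rho 0.930 (permutation tests, two-sided, p = 3.00e-05 and p = 0.000110; adjusted over 9 relations 0.000270 and 0.000990). Without the 2 libraries farthest from the Pvalb median r was 0.919 (adjusted permutation p = 0.00513), and after removal of the mean of each of the 3 library sets of 4 that share a replicate number it was 0.888 (adjusted permutation p = 0.000720). A set of 4 libraries is too small for an r of its own. The deepest library, wild type female 1, was the highest in both genes.

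None of the other 8 relations passed the threshold for Pearson's r. The nearest were Tnr (r = 0.692, rho = 0.727, adjusted permutation p = 0.0541 and 0.0441), Acan (r = 0.621, rho = 0.685, adjusted permutation p = 0.0848 and 0.0515) and Vcan (r = 0.603, rho = 0.490, adjusted permutation p = 0.0848 and 0.231). Without the 2 farthest libraries r was 0.603 for Tnr, 0.681 for Acan and 0.168 for Vcan, so that of Vcan rests on those libraries. The lowest correlation in size was that of Hapln1 (r = 0.00, rho = 0), and r was 0.118 for Bcan, 0.367 for Ncan, -0.295 for Hapln3 and -0.378 for Has2. Both genes of each relation were measured in the same libraries and share their depth and dissection.

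**Figure D5:**
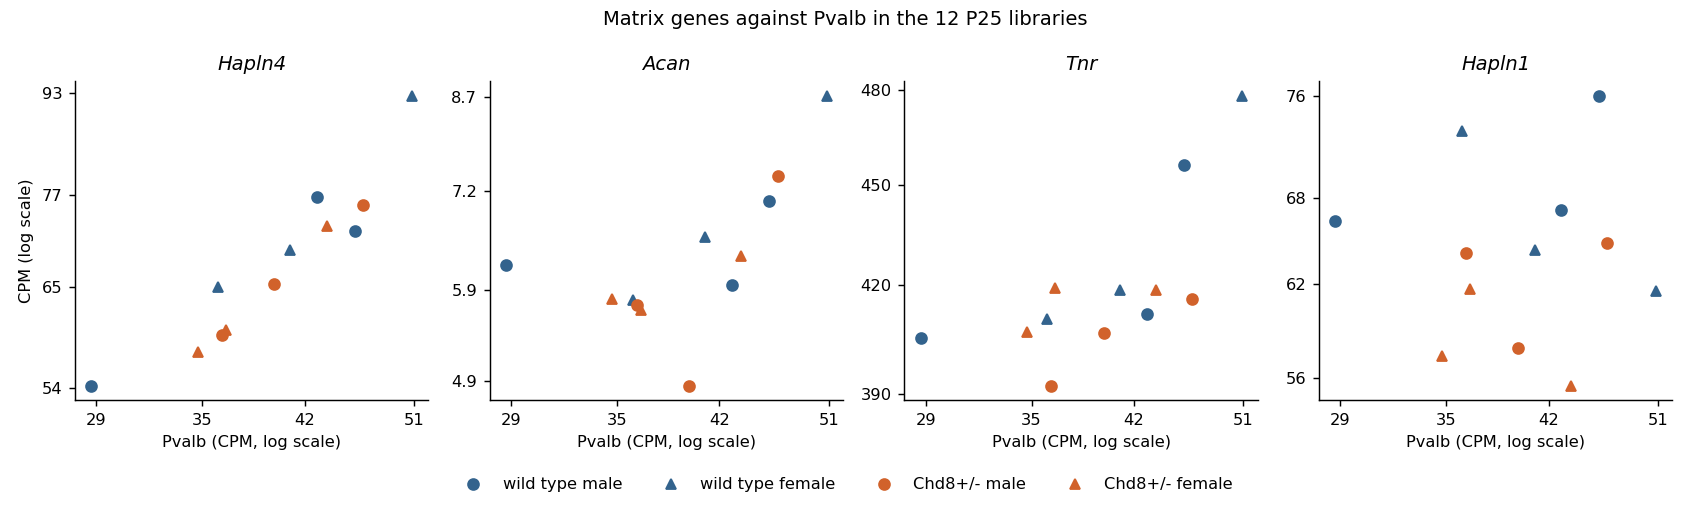
Levels of Hapln4, Acan, Tnr and Hapln1 against Pvalb in the 12 P25 libraries (CPM, log axes that do not start at 0); points are libraries by genotype and sex. Hapln4 rises with Pvalb (r = 0.935) and Hapln1 shows no trend (r = 0.00).

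Among the 11833 other genes with a mean of at least 5 CPM at P25, those with a pattern most like that of Pvalb across the 12 libraries were Osbpl1a (r = 0.971), Trim37 (0.968), C130074G19Rik (0.967), A830009L08Rik (0.962) and Efna5 (0.958). Those most like Acan were Stat6 (0.900), Cmtr1 (0.891), Aifm3 (0.891), Elapor1 (0.883) and Ddx55 (0.867). These are the extremes of a search over all genes and are given as a description of the 12 libraries. All 5 listed for Pvalb lay above the r of Hapln4 with Pvalb (0.935), so a close relation to Pvalb was not particular to net genes.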

How the data were processed

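PolyA-selected RNA of 36 mice was sequenced in paired-end reads. Per the submitters' processing notes, STAR 2.7.9a, featureCounts and Subread were used with genome build mm39; strand setting: not given in the sources used here. The authors deposited raw counts per gene, 1 table per age, not normalized; all 55359 rows name a gene. At E17.5 most column names carry another replicate number than the sample title, and columns were matched through the sample descriptions. For 1 E17.5 Chd8+/- female the column name also differs from the description, and the match rests on its library number, genotype and sex. Replicate numbers in this text are those of the titles.

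Counts were tested with edgeR 4.0.16 in R 4.3.3 (quasi-likelihood test, TMM, filterByExpr, Benjamini-Hochberg over all genes tested, threshold 0.05): genotype within each age and genotype by sex with sex as a covariate, age in the 18 wild type libraries, and genotype by age in all 36. A further rule for age asked for a log2 fold change of at least 1. CPM used TMM over all libraries, and log2 CPM a prior count of 2. Scripts were tested on simulated data. Correlations used 100000 permutations (scipy 1.17.1). Genotype differences in 10 within-library ratios were tested by exact permutation over libraries, added after the values were seen. Exon lengths and neighbours came from GENCODE M21 (GRCm38) and upstream sequences from RefSeq (GRCm38.p6), where 8 of the 10 members had an entry; coordinates refer to those builds only. The alternatives were DESeq2 1.42.0, RLE scaling, library totals only, no filter, a filter of 1 CPM or more in 6 or more libraries, no sex covariate, a replicate block, all libraries in 1 fit, leaving out library sets, and leaving out each library in turn.

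Named genes were the members, their remaining family, the 2 largest rises and falls of each matrix list, and the 5 genes most like Acan and Pvalb. The members, lists and cell type markers were chosen with earlier results of these data known. Precision comes from the spread between animals; reads without molecular identifiers are not independent molecules. In 90 pairs of libraries of 1 age and genotype the chi-square per degree of freedom was 6.49 or more, so no library repeated another of its group.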

Additional observations from a re-analysis of the deposited data

Results flagged for a closer look

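In 53 groups of 6 libraries (1 member, age and genotype, with no library at 0), 4 held a library that stood apart from the others, by the size of its gap to the nearest library relative to the range of the group (Dixon's test at the 95% level); chance flags about 1 group in 20. At E12.5, Chd8+/- male 2 had Tnr at 4.03 CPM (167 counts), with the next highest library of its group at 2.02. At E17.5, wild type male 3 had Bcan at 21.5 CPM, with the next at 14.6, and Chd8+/- male 3 had Has2 at 2.67 CPM (85 counts), with the next at 0.925. At P25, Chd8+/- female 3 had Vcan at 62.1 CPM, with the next at 57.5. The genotype difference in Tnr differed between ages when tested directly, by 1.0 on the log2 scale for E17.5 against E12.5 and by 1.11 for P25 against E12.5. That test shares its estimate of spread over the ages. No cause of these values was tested.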

How the results depend on the processing

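Over all alternatives, the members' age differences kept their sign in 774 of 783 fits and their genotype differences in 497 of 532, and none that passed the threshold changed sign. In the genotype test at E12.5, the number of genes called was 44 by edgeR, 1146 by DESeq2, 232 with no filter, 176 with a stricter filter, 299 without sex and 1233 with all 36 libraries in 1 fit; members called were 3, 1, 1, 1 and 4 in that order, against 0. At E17.5 the genes called were 106 by DESeq2 and 216 with no filter (members 1), and at P25 17, 76, and 5 with all 36 libraries. With no filter, the genotype by sex term called 17 genes (E17.5) and 27 (P25). Genotype by age called 276 genes by DESeq2, 137 with library totals and 264 with no filter for E17.5 against E12.5, 534 (members 2), 295 and 373 for P25 against E12.5, and 0 with library totals for P25 against E17.5. With 1 library left out, genes called ranged from 1 to 670 (genotype E12.5, members 0 to 1; 670 without Chd8+/- male 2), 12 to 53 (E17.5; 53 without Chd8+/- male 3), 1 to 2 (P25), 26 to 515 (E17.5 against E12.5 by genotype, members 0 to 2), 64 to 675 (P25 against E12.5, members 1 to 2; the highest of both without E12.5 Chd8+/- male 2, the lowest without E12.5 Chd8+/- male 1) and 0 to 1 (P25 against E17.5). Without 1 P25 library the difference in the Bcan to Ncan ratio ran from -0.12 to -0.09 (adjusted exact permutation p = 0.0433 to 0.152). The cause of these shifts was not tested.

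The labels tie no replicate number to a litter. The numbers used here are those of the sample titles, and at E17.5 most column names carry others. Blocks by the numbers of the column names were not tested. With replicate numbers as a block, the genotype test called 349 genes at E12.5 (members 1, Tnr), 79 at E17.5 and 5 at P25, and with the replicate block by sex 1, 52 and 6. Same-numbered libraries of 1 sex correlated above 0.1 in 0 of 6 pairs at E12.5, 3 of 6 at E17.5 and 5 of 6 at P25, and matched their own number best in 1, 4 and 5 of 6. Members under about 1 CPM (Acan, Hapln4 and Pvalb before birth, Hapln1 at E17.5, Has2 at E17.5 and P25, Hapln3 in many libraries) rest on few counts, which limits what differences could be seen.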
